A study of Mus musculus with 27 samples.

Results

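The genes described here are 10 of the 21848 genes in the count table: Mat1a, Mat2a, Gnmt, Bhmt, Ahcy, Pemt, Cbs, Cth, Inmt and Nnmt, which together carry methionine and methyl groups through the hepatocyte. They were chosen by name for their place in the pathway, and each was found once in the table and passed the filter on low counts in every comparison. That filter asks for counts in only as many libraries as a condition holds, so a gene such as Inmt passed through the conditions where it was high.

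Methionine enters the cycle when a methionine adenosyltransferase joins it to ATP and makes S-adenosylmethionine, the methyl donor of the cell. Methyltransferases pass that methyl group on and leave S-adenosylhomocysteine, which adenosylhomocysteinase (Ahcy) splits into adenosine and homocysteine. Homocysteine is either methylated back to methionine or sent through cystathionine to cysteine, a building block of glutathione. The adult liver is the main site of this traffic. It is known for using the Mat1a form of the first enzyme, while Mat2a is the form of most other tissues and of dividing cells.

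Bulk RNA was sequenced from C57BL/6 mouse liver cells in 9 conditions of 3 libraries each, 27 in all, and the genotype label is wild type for 26 of them. One condition was hepatocytes taken directly from the liver of healthy adult mice. 4 were hepatocyte organoids (HepOrgs), primary hepatocytes grown in Matrigel in an expansion medium named HM-Wnt and used at passage 2. They were then kept in HM-Wnt or moved to a medium named MM, for 1 week (7 days) or 2 weeks (14 days). Both media contained 30% Wnt-conditioned medium, a ROCK inhibitor and 1.25 mM N-acetylcysteine. HM-Wnt alone also held growth factors (EGF, HGF, FGF7 and FGF10), RSPO1-conditioned medium, gastrin, the TGF-beta receptor inhibitor A83-01, the GSK3 inhibitor CHIR and 10 mM nicotinamide, the substrate of the Nnmt enzyme. The other 4 were periportal assembloids grown in MM, in which 10 HepOrgs were combined with 1000 cholangiocytes and with portal mesenchymal cells. A homeostasis assembloid received 250 mesenchymal cells and a fibrosis-like assembloid 2500, and both were collected at 1 week (7 days) or 2.5 weeks (18 days). By the study's methods the HepOrgs of assembloids generally came from wild-type mice, the cholangiocytes from organoids of a nuc-tdTomato reporter line and the mesenchyme from PDGFRα-H2B-GFP reporter mice, sorted for GFP and SCA1. In the assembloids, hepatocyte RNA was therefore only a part of what was sequenced, and in bulk RNA fewer cells of a type and less RNA per cell cannot be told apart. The labels do not say which libraries came from separate animals or cultures, so each p-value measures the spread between libraries, which may be technical.

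Library totals ran from 30289364 to 65345685 counts. Replicate 3 of the fresh hepatocytes is titled wild type while its genotype label names a heterozygous MDR2 animal. It was grouped by its title, and leaving it out changed none of the counts of changed members against fresh cells. Of 8 hepatocyte markers 7 were in the table under the listed names, and their summed level was 70335 to 98044 counts per 1000000 assigned reads (CPM) in fresh cells and 28867 to 87033 CPM across the 4 HepOrg conditions, so the HepOrgs carried the hepatocyte label. All 6 cholangiocyte markers were also present in HepOrgs, at a summed 3516 to 14984 CPM against 11.9 to 139 CPM in fresh cells. That shift runs alongside every comparison of HepOrgs with fresh cells, and its part in the results was not tested. In 1 library, replicate 2 of the homeostasis assembloids at 1 week, only 8463 genes had a count, against 14014 to 16016 in the other 26. The values without it are given beside the comparisons in which it takes part.

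Levels below are CPM after TMM normalisation over the 27 libraries, and fold changes come from edgeR's quasi-likelihood test with Benjamini-Hochberg adjustment over all genes tested and a threshold of 0.05. All 4 HepOrg comparisons with fresh hepatocytes used the same 3 fresh libraries and are not independent of each other.

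In HepOrgs most of the pathway stood far below its level in freshly isolated hepatocytes, with Gnmt, Bhmt and Inmt the farthest down, while Mat2a stood above it. In HM-Wnt, 9 of the 10 genes passed the threshold at 1 week and 9 at 2 weeks, in each case 8 lower and Mat2a higher. The background was broad, since 49.7% and 51.8% of all 13396 genes tested passed in these comparisons, and 24.8% and 25.7% passed as lower. In MM, 9 genes passed at 1 week (8 lower, Mat2a higher) against 42.8% of all genes, and 7 passed at 2 weeks, all lower, against 39.7%. Among all genes 21.3% and 20.0% passed as lower in MM. The median log2 fold change over the 10 members was -2.92 and -3.09 in HM-Wnt and -2.55 and -2.03 in MM, whereas the median over all genes tested lay between -0.01 and 0.03.

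**Figure D1:**
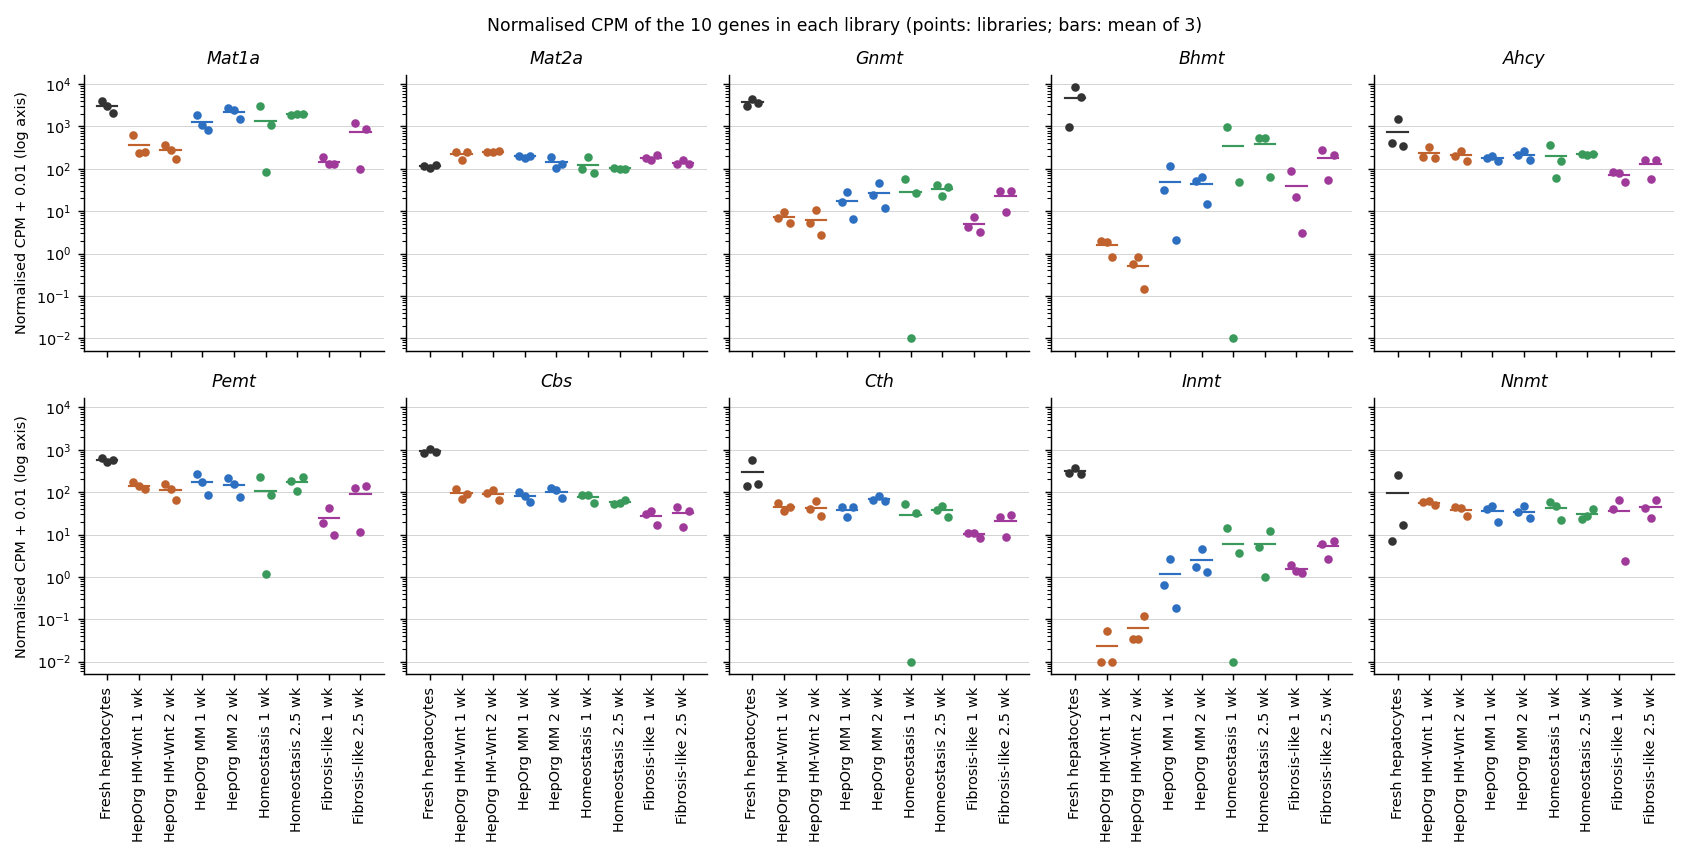
Level of each of the 10 genes in all 27 libraries, as TMM-normalised CPM plus 0.01 on a log axis, with 1 panel per gene, 1 point per library and a bar at the mean of each condition's 3 libraries. Gnmt, Bhmt and Inmt lie orders of magnitude lower in HM-Wnt HepOrgs than in fresh hepatocytes, while Mat2a stays between 78.3 and 259.8 CPM throughout.

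For the synthesis step, Mat1a was the more abundant transcript in fresh hepatocytes, at a mean of 821 CPM per kilobase of exon against 24.9 for Mat2a. Mat1a encodes the catalytic subunit of the liver-type methionine adenosyltransferases and lies at chr14:40826926-40846384 on the plus strand of GRCm39. Its level was 4095, 3121 and 2110.3 CPM in the 3 fresh libraries, 634, 241 and 247 CPM in HM-Wnt at 1 week and 366, 285 and 168 CPM at 2 weeks. No HM-Wnt library reached the lowest fresh library. The log2 fold change was -3.09 ± 0.48 (SE, n = 3 against 3, adjusted p = 0.000168 from edgeR) at 1 week and -3.53 ± 0.49 (adjusted p = 6.01e-05 from edgeR) at 2 weeks.

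In MM the same gene was much nearer to fresh cells. Mat1a read 1898, 1105 and 827 CPM at 1 week and 2683, 2458 and 1534 CPM at 2 weeks. The 1-week libraries all lay below the fresh ones, whereas the 2-week libraries overlapped them. At 1 week the log2 fold change was -1.30 ± 0.45 (adjusted p = 0.0322 from edgeR), a call that was lost without fresh replicate 1 or 2 or without MM replicate 2 or 3. At 2 weeks it was -0.50 ± 0.44 (adjusted p = 0.395 from edgeR), which did not pass.

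Mat2a, at chr6:72409779-72416684 on the minus strand, encodes the catalytic subunit found outside the adult hepatocyte. It read 118, 107 and 123 CPM in fresh cells, 251, 163 and 244 CPM in HM-Wnt at 1 week and 250.3, 247 and 259.8 CPM at 2 weeks. Every HM-Wnt library was above every fresh one, with log2 fold changes of 0.88 ± 0.21 (adjusted p = 0.00379 from edgeR) and 1.10 ± 0.21 (adjusted p = 0.000803 from edgeR). In MM it read 204, 179.9 and 204 CPM at 1 week, still above fresh cells with a log2 fold change of 0.73 ± 0.21 (adjusted p = 0.0134 from edgeR). At 2 weeks in MM the values were 189, 106 and 129 CPM, which overlapped the fresh libraries, and the difference of 0.26 ± 0.21 did not pass. Exons of Mat2a share 791 bases, 16.9% of its exonic length, with Ggcx on the opposite strand. The library protocol (SMARTseq2) does not mark strand, so reads there cannot be told apart. Ggcx itself read 138 to 185 CPM in fresh cells and 44.8 to 136 CPM in HepOrgs, the opposite order to Mat2a.

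The methyltransferases that spend S-adenosylmethionine followed 3 different courses. Glycine N-methyltransferase (Gnmt, chr17:47036587-47040107, minus strand), which disposes of surplus methyl groups as sarcosine, was the member with the highest level per exonic length in fresh cells, at a mean of 2095 CPM per kilobase. In CPM it read 2991, 4493 and 3583 CPM there, 6.84, 9.49 and 5.25 CPM in HM-Wnt at 1 week and 5.36, 10.6 and 2.81 CPM at 2 weeks. No HepOrg library came near the fresh range, with log2 fold changes of -9.05 ± 0.81 (adjusted p = 1.94e-06 from edgeR) and -9.24 ± 0.82 (adjusted p = 1.57e-06 from edgeR). In MM the levels were 16.3, 29.2 and 6.42 CPM at 1 week and 23.9, 45.9 and 12.1 CPM at 2 weeks. These also lay far below fresh cells, with log2 fold changes of -7.76 and -7.10. Gnmt shares 297 exonic bases, 16.9% of its exonic length, with Pex6 on the opposite strand. Pex6 read 13.2 to 28.4 CPM in HepOrgs, a level like that of Gnmt itself there, so part of the low Gnmt count in HepOrgs cannot be told apart from Pex6.

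Indolethylamine N-methyltransferase (Inmt, chr6:55147606-55152028, minus strand), which methylates tryptamine and related amines, was all but undetected in HM-Wnt. Fresh cells gave 281, 371 and 275 CPM. The 3 HM-Wnt libraries at 1 week held 0, 1 and 0 counts and those at 2 weeks 1, 1 and 4 counts, where a count of 0 allows up to 0.0870 CPM and 0.0649 CPM in replicates 1 and 3 at 1 week. Over the summed counts, fresh cells were 31593 times higher than HM-Wnt at 1 week (95% exact counting interval 5670 to 1247900) and 5849.7 times higher at 2 weeks (2687 to 15941). These intervals and limits cover counting error only. In MM the gene was counted in every library, at 0.627, 2.70 and 0.180 CPM at 1 week and 1.69, 4.46 and 1.29 CPM at 2 weeks. The log2 fold changes against fresh cells were -8.10 ± 0.85 (adjusted p = 1.01e-05 from edgeR) and -6.98 ± 0.81 (adjusted p = 2.33e-05 from edgeR).

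Phosphatidylethanolamine N-methyltransferase (Pemt), which builds phosphatidylcholine in the liver, fell by far less. Its level was 628, 517 and 567 CPM in fresh cells and 64.5 to 170.2 CPM over the 6 HM-Wnt libraries. MM libraries read 76.8 to 273 CPM, so no HepOrg library reached the fresh range. The log2 fold change was -2.03 and -2.35 in HM-Wnt and -1.71 and -1.95 in MM, with adjusted p between 0.000746 and 0.00722 from edgeR.

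Ahcy, which clears S-adenosylhomocysteine, was spread widely among the fresh libraries at 406, 1526 and 337 CPM. The 12 HepOrg libraries read 155 to 328 CPM, all under the lowest fresh library. The log2 fold changes were -1.73 and -1.88 in HM-Wnt and -2.13 and -1.86 in MM at the earlier and the later time, and each passed. The high fresh replicate 2 carried part of that size, since without it the difference in HM-Wnt at 1 week was -0.68 (adjusted p = 0.0742 from edgeR) and in MM at 2 weeks -0.78 (adjusted p = 0.0504 from edgeR), neither of which passed.

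Betaine-homocysteine methyltransferase (Bhmt, chr13:93753183-93774469, minus strand) returns homocysteine to methionine with a methyl group from betaine, and in fresh cells it ranged from 991 to 8499.7 CPM with 4898 CPM between. HM-Wnt libraries read 2.00, 1.91 and 0.800 CPM at 1 week and 0.548, 0.802 and 0.138 CPM at 2 weeks, all far below the lowest fresh library. The log2 fold changes were -11.64 ± 1.60 (adjusted p = 6.65e-05 from edgeR) and -13.26 ± 1.70 (adjusted p = 3.28e-05 from edgeR). In MM the values were 31.3, 116 and 2.04 CPM at 1 week and 51.3, 65.5 and 15.0 CPM at 2 weeks. These are higher than in HM-Wnt but still under every fresh library, with log2 fold changes of -6.62 and -6.81.

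The transsulfuration genes fell in every HepOrg condition. Cystathionine beta-synthase (Cbs), which commits homocysteine to cysteine, read 849.8, 1029 and 885 CPM in fresh cells and 60.4 to 129 CPM over all 12 HepOrg libraries. Its log2 fold changes lay between -3.54 and -3.18 over the 4 conditions. Cystathionine gamma-lyase (Cth), which releases the cysteine, read 140.0, 586 and 159 CPM in fresh cells and 26.5 to 82.2 CPM in HepOrgs, with log2 fold changes of -2.75, -2.80, -2.97 and -2.11. Here too fresh replicate 2 was high, and without it the changes were -1.74 and -1.79 in HM-Wnt and -1.97 and -1.08 in MM, each of which still passed (adjusted p 0.000418 to 0.0169 from edgeR). In MM at 2 weeks Cth read 62.2 to 82.2 CPM, above every other HepOrg library. The margin was small, since HM-Wnt replicate 2 at 2 weeks read 61.8 CPM. Neither gene overlapped between fresh and HepOrg libraries in any condition.

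**Figure D2:**
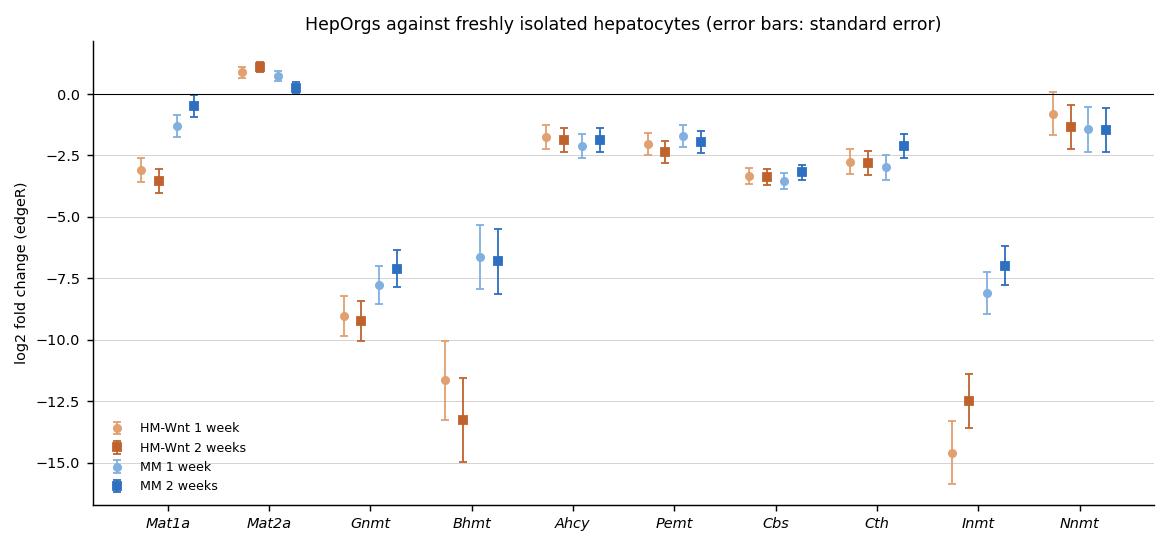
Log2 fold change of each of the 10 genes in the 4 HepOrg conditions against freshly isolated hepatocytes, with bars of 1 standard error from the edgeR fit and the zero line marked. Gnmt, Bhmt and Inmt lie at -6.62 or below in all 4 conditions, and Mat2a is the single gene to the higher side.

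Nicotinamide N-methyltransferase (Nnmt), which spends a methyl group on nicotinamide, was the gene that passed in none of these comparisons. The fresh libraries read 7.03, 257 and 16.8 CPM, and the 12 HepOrg libraries 19.7 to 60.6 CPM. All HepOrg libraries thus lay above 2 of the fresh libraries and below the other. Without fresh replicate 2 the log2 fold change turned positive and passed, at 2.22 and 1.68 in HM-Wnt (adjusted p = 0.00154 and 0.00691 from edgeR) and 1.56 and 1.56 in MM (adjusted p = 0.0127 and 0.0131 from edgeR). Without fresh replicate 1 it was negative and passed in HM-Wnt at 2 weeks (-1.87, adjusted p = 0.0495 from edgeR) and in MM at 1 week (-1.97, adjusted p = 0.0498 from edgeR). Fresh replicate 2 also had the highest summed markers of the fresh libraries for cholangiocytes (139 CPM against 11.9 and 30.7), endothelial cells (189 against 41.2 and 160.4), immune cells (391 against 42.5 and 149) and mesenchyme (143 against 21.6 and 97.3), and their part in its Nnmt level was not tested.

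The upstream sequences of the genes that moved most, and of Mat2a which moved the other way, are shown for comparison. Each is the 250 bases before the RefSeq transcription start on the gene's own strand, 5′ to 3′, in build GRCm38.p6. The RefSeq table held 7 of the 10 members and had no entry for Mat1a, Cth or Nnmt. Capitals mark every match, on either strand, to AGGTCA (a nuclear receptor half-site, TGACCT on the other strand), CAAAGGTCA (a longer form that contains it), the CCAAT box (on the other strand written ATTGG) and the TATA box TATAAA.
Gnmt, chr17:46729166-46729415, minus strand: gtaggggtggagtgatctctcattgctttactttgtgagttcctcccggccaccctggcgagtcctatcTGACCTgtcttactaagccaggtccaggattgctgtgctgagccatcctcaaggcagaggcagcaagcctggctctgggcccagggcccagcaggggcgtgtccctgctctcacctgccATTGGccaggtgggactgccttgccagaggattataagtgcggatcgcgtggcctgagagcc
Bhmt, chr13:93637759-93638008, minus strand: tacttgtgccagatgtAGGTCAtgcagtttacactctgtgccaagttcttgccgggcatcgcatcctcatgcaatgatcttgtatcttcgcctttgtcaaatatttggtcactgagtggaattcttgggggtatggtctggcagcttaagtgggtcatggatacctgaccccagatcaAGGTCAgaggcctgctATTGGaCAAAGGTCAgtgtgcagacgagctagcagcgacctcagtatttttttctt
Inmt, chr6:55174991-55175240, minus strand: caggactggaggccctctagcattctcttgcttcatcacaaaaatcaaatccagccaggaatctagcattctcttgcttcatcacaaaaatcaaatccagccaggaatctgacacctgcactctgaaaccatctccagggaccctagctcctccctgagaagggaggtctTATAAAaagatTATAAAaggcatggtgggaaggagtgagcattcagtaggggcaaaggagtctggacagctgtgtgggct
Mat2a, chr6:72439557-72439806, minus strand: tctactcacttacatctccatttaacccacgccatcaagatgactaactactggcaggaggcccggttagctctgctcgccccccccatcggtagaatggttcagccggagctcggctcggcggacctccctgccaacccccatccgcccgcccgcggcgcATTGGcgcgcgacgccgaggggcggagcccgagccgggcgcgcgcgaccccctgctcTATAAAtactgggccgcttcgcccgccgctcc

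AGGTCA was present in 14.0% of the 32851 promoters of the same length, CAAAGGTCA in 0.426%, CCAAT in 33.8% and TATAAA in 12.4%. Bhmt held AGGTCA 3 times, of which 1 was the longer form, and Gnmt held it once. Inmt held no AGGTCA and no CCAAT but TATAAA 2 times, and Mat2a held TATAAA once and CCAAT once. Mat2a also differed from these in base composition, with 29 CpG dinucleotides (percentile 94.1 of all promoters) against 6 in Gnmt, 5 in Bhmt and 0 in Inmt, where the median promoter had 6. Among the members not printed, all lower in HepOrgs, Cbs had 21 (percentile 85.2), Ahcy 9, and Pemt 1 and 2 in separate entries. Ahcy also held AGGTCA once. These matches describe the letters in this window and were not tied to any measurement of binding.

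The medium changed only some of these genes. When HepOrgs in MM were compared with HepOrgs kept in HM-Wnt, 2 of the 10 members passed at 1 week, Bhmt and Inmt, both higher in MM, against 2.98% of the 12989 genes tested and 1.76% as higher. Inmt passed the filter on low counts here only through its MM libraries, so its calls as higher in MM are not independent of that filter. At 2 weeks 5 passed against 11.5% of genes: Mat1a, Gnmt, Bhmt and Inmt were higher in MM, where 6.84% of all genes were, and Mat2a was lower. Same-numbered HepOrg libraries deviated together, and with the replicate number as a block 5 members passed at each time, against 9.48% and 19.6% of all genes. Pemt, Ahcy, Cbs and Cth passed in neither fit at either time.

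Mat1a was 1 of those that moved with the medium. All 3 MM libraries were above all 3 HM-Wnt libraries at both times, and at 2 weeks the lowest MM value was 1534 CPM against a highest HM-Wnt value of 366 CPM. The log2 fold change was 1.77 ± 0.46 at 1 week (adjusted p = 0.0606 from edgeR, or 0.00281 with the block) and 3.04 ± 0.48 at 2 weeks (adjusted p = 0.00353 from edgeR). At 1 week it passed also without the block once HM-Wnt replicate 1 (2.41) or MM replicate 3 (2.01) was left out. Mat2a went the other way at 2 weeks, by -0.82 ± 0.22 (adjusted p = 0.0370 from edgeR), a call that held only without MM replicate 1 among the libraries left out in turn (-0.84 to -0.67 without the others). At 1 week its difference of -0.16 ± 0.22 did not pass and the media overlapped.

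Bhmt and Inmt, which were close to 0 in HM-Wnt, were the members with the largest difference between media. Bhmt was higher by 5.01 ± 1.18 on the log2 scale at 1 week (adjusted p = 0.0445 from edgeR) and by 6.46 ± 1.29 at 2 weeks (adjusted p = 0.0103 from edgeR), with every MM library above every HM-Wnt library at both times. At 1 week MM replicate 3 was only just above, at 2.04 CPM against a highest HM-Wnt value of 2.00 CPM. Inmt counts in MM were 32, 100 and 9 at 1 week and 63, 190 and 46 at 2 weeks against the 0 to 4 counts per library in HM-Wnt given above. Its fitted log2 fold change was 6.48 ± 1.40 (adjusted p = 0.0355 from edgeR) and 5.50 ± 1.14 (adjusted p = 0.0123 from edgeR). The ratio of summed counts, scaled to library size, was 107 at 1 week (95% exact counting interval 18.9 to 4257) and 50.1 at 2 weeks (22.8 to 138). Both intervals cover counting error only and leave out the spread between libraries. In the fit without the replicate block, the 1-week calls of both genes rested on narrow margins. Each was lost when any 1 library other than MM replicate 3 was left out. The log2 fold changes then ran from 3.44 to 5.28 for Bhmt and from 4.96 to 8.57 for Inmt. Libraries were not left out of the fit with the block. At 2 weeks the call of Bhmt held without each library in turn, and that of Inmt was lost only without HM-Wnt replicate 1 (5.17).

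Gnmt was higher in MM by 2.14 ± 0.63 at 2 weeks, with an adjusted p of 0.04998 from edgeR, just under the threshold (0.000282 with the block). That call was lost without HM-Wnt replicate 1 or 3 or MM replicate 1 or 2, when the log2 fold change ran from 1.52 to 2.21. At 1 week its difference was 1.28 ± 0.62 (adjusted p = 0.245 from edgeR, or 0.0252 with the block), and the media overlapped.

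Nnmt was lower in MM at 1 week in every library, at 39.7, 47.1 and 19.7 CPM against 58.3, 60.6 and 49.7 CPM in HM-Wnt, the medium that held nicotinamide. The log2 fold change of -0.66 ± 0.32 did not pass (adjusted p = 0.246 from edgeR), but passed with the block at -0.75 (adjusted p = 0.0354 from edgeR). At 2 weeks the media overlapped, with a difference of -0.12 ± 0.32.

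**Figure D3:**
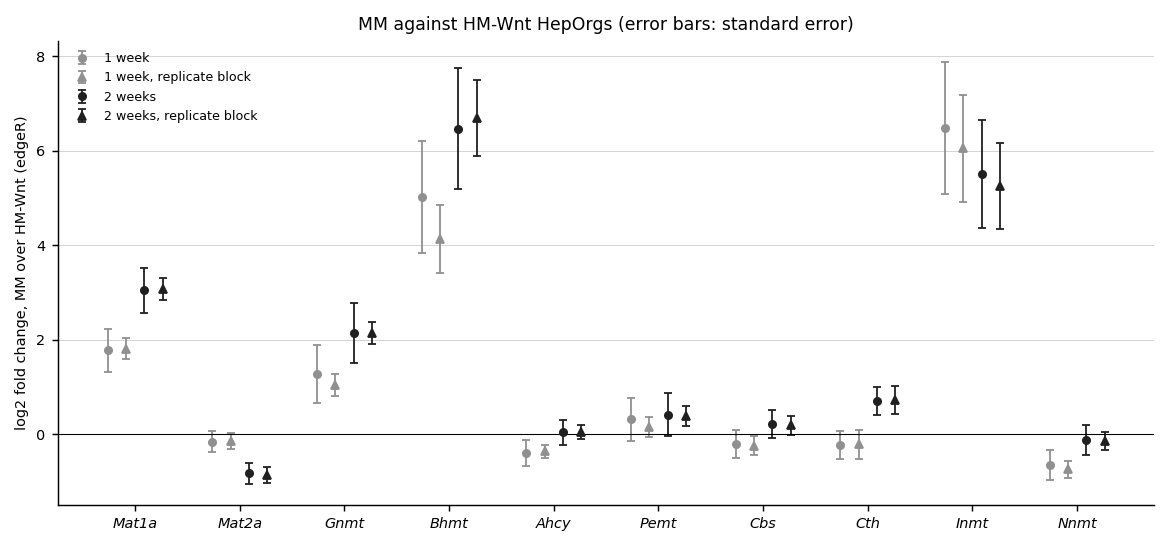
Log2 fold change of each of the 10 genes in MM against HM-Wnt HepOrgs at 1 week (grey) and 2 weeks (black), from the edgeR fit without (circles) and with (triangles) the replicate block, with bars of 1 standard error. Bhmt and Inmt lie above 4 in all 4 fits, Mat1a lies at 1.77 and 3.04 without the block, and Pemt, Ahcy, Cbs and Cth, which passed in no fit, lie between -0.40 and 0.72.

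Whether the medium effect itself differed between 1 and 2 weeks was tested with an interaction term. None of the 10 members and 0% of all genes passed by edgeR. At an unadjusted p under 0.05, 1 member (Cth) and 951 of all 12989 genes were below the threshold, and DESeq2 called 0 members and 38 of 16482 genes. Culture time averaged over both media likewise gave 0 members by edgeR, against 0.00770% of all genes. At an unadjusted p under 0.05 it gave 0 members and 1539 of 12989 genes. DESeq2 called 0 members and 411 of 13416 genes.

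Because Mat1a and Mat2a encode catalytic subunits for the same reaction, the ratio of their counts within a library was also followed, a quantity that does not depend on library scaling. Neither gene's length enters it, so it compares libraries and not the amounts of the 2 transcripts. It was 34.7, 29.0 and 17.1 in fresh hepatocytes, 2.52, 1.47 and 1.01 in HM-Wnt at 1 week and 1.46, 1.16 and 0.647 at 2 weeks. In MM it was 9.28, 6.14 and 4.06 at 1 week and 14.2, 23.1 and 11.9 at 2 weeks. No MM library had a ratio as low as any HM-Wnt library, and the 2-week MM libraries partly overlapped the fresh ones. Averaged over both times, MM exceeded HM-Wnt by 2.96 on the log2 scale, or 7.77-fold (exact two-sided permutation test within times, p = 0.005, the smallest that 400 permutations can give). That test shuffled libraries freely within each time and took the times as separate. Same-numbered HepOrg libraries deviated together, so its p-value, here and with libraries left out, can overstate the independent evidence. Against fresh cells the log2 difference was -4.05 and -4.65 in HM-Wnt and -2.07 in MM at 1 week, each with an exact two-sided permutation p of 0.1, the smallest that 3 libraries against 3 allow, and -0.71 in MM at 2 weeks (exact permutation p = 0.2).

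The same ratio was followed in the assembloids. Homeostasis assembloids read 29.3, 0.445 and 13.6 at 1 week and 18.0, 19.3 and 19.7 at 2.5 weeks. Fibrosis-like assembloids read 1.05, 0.806 and 0.602 at 1 week and 9.47, 0.645 and 6.58 at 2.5 weeks. At 2.5 weeks all 3 fibrosis-like libraries were below all homeostasis ones, and at 1 week the groups overlapped through homeostasis replicate 2, the library with few genes. Averaged over both times, fibrosis-like lay below homeostasis by 2.64 on the log2 scale (log2 difference -2.64, exact two-sided permutation test within times, p = 0.035). That call did not hold when 1 library at a time was left out, since in 9 of the 12 cases the permutation p rose to between 0.055 and 0.1 with log2 differences of -2.74 to -2.04. The exceptions were homeostasis replicate 2 at 1 week (-3.56, exact permutation p = 0.005) and fibrosis-like replicates 1 and 3 at 2.5 weeks (-3.01 and -2.88, exact permutation p = 0.02 and 0.025). At 1 week alone the difference was -2.82 (exact permutation p = 0.4), or -4.65 without homeostasis replicate 2 (exact permutation p = 0.1, the smallest that 10 permutations allow), and at 2.5 weeks -2.47 (exact permutation p = 0.1, the smallest possible). Mat2a, unlike Mat1a, is known to be expressed by cells other than hepatocytes. The cell mixture also differed between the groups, though not in every library, and its part in the ratio was not tested. Cholangiocyte markers summed to 7283 to 8875 CPM in homeostasis and 7438 to 10465 CPM in fibrosis-like assembloids at 1 week. At 2.5 weeks they summed to 6613 to 10318 and 6648 to 9111 CPM. The 8 mesenchymal markers summed to 122, 1041 and 295 CPM in homeostasis and 2302, 6059 and 284 CPM in fibrosis-like assembloids at 1 week, and to 170.3 to 248 and 1320.5 to 4997 CPM at 2.5 weeks. The 7 hepatocyte markers summed to 104120, 2503.7 and 51272 CPM and to 21453, 25595 and 4716 CPM at 1 week, and to 64686 to 79373 and 13616 to 63967 CPM at 2.5 weeks. The number of mesenchymal cells added and any change within hepatocytes cannot be told apart here.

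**Figure D4:**
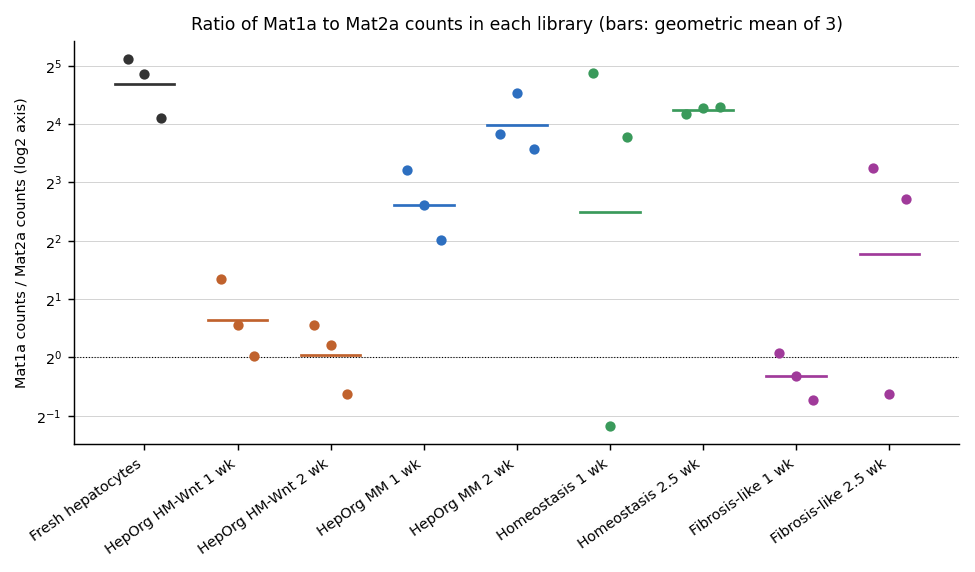
Ratio of Mat1a to Mat2a counts in each of the 27 libraries on a log2 axis, grouped by condition, with 1 point per library and a bar at the geometric mean of 3. Fresh hepatocytes lie between 17.1 and 34.7, HM-Wnt HepOrgs between 0.647 and 2.52, and MM HepOrgs between 4.06 and 23.1, while homeostasis at 1 week and fibrosis-like at 2.5 weeks each hold 1 library below 1.

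Gene by gene, none of the 10 members passed between fibrosis-like and homeostasis assembloids, where edgeR called 0% of 14253 genes at 1 week and 0% at 2.5 weeks. At an unadjusted p under 0.05, 3 members at 1 week and 0 at 2.5 weeks were below the threshold, out of 2012 and 944 of all genes. DESeq2 called 1 member and 796 of 14944 genes at 1 week, and 0 members and 285 of 14599 genes at 2.5 weeks. The change of that difference with time and the average change from 1 to 2.5 weeks also gave 0 members and 0% of genes. At an unadjusted p under 0.05 each gave 0 members, out of 278 and 598 of all genes. DESeq2 called 0 members and 0 of 17363 genes in each.

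At 1 week Mat1a read 2973, 83.9 and 1068 CPM in homeostasis and 192, 128 and 127 CPM in fibrosis-like assembloids. The fibrosis-like libraries lay between the low homeostasis library and the other 2, and the log2 fold change of -3.21 ± 1.10 did not pass (adjusted p = 0.295 from edgeR). Replicate 2 of homeostasis held 0 counts of Gnmt, Bhmt, Cth and Inmt, each of which allows up to 0.0614 CPM, and it was also the library with the least hepatocyte marker signal. Without it, 5 members passed against 8.01% of 14746 genes. These were Mat1a (log2 fold change -3.77, adjusted p = 0.0441), Gnmt (-3.09, 0.0407), Ahcy (-1.91, 0.0465) and Cth (-2.10, 0.0441), lower in fibrosis-like, and Mat2a (1.03, 0.0408), higher, all by edgeR.

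A second library, replicate 2 of the fibrosis-like assembloids at 2.5 weeks, was left out as well after it was seen to have few hepatocyte markers. This choice was made from the data. With both gone, 7 members passed at 1 week (6 lower, Mat2a higher) against 15.9% of genes, and 0 at 2.5 weeks. When the remaining libraries were scaled to the 7 hepatocyte markers, the median of all genes moved from 0.15 to 2.93 on the log2 scale, and 1 member passed at 1 week, Mat2a with a log2 fold change of 3.98 (adjusted p = 0.0195 from edgeR). On that scale 71.2% of all genes passed, 10338 of 14517, and 10334 of them were higher, so most genes tested passed along with Mat2a. Mat1a was at -0.86 and Gnmt at -0.47, neither of which passed.

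**Figure D5:**
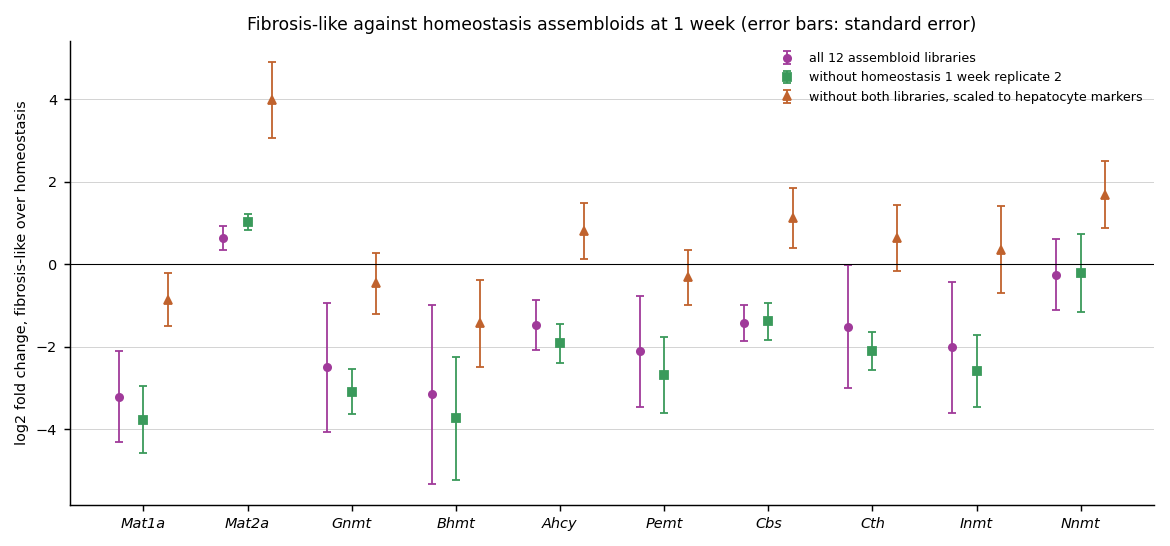
Log2 fold change of each of the 10 genes in fibrosis-like against homeostasis assembloids at 1 week with all 12 assembloid libraries (circles), without homeostasis replicate 2 (squares), and without both low-marker libraries and scaled to hepatocyte markers (triangles), with bars of 1 standard error. Mat2a is the 1 gene above zero in all 3, and the triangles of all genes lie higher, in a scaling whose median over all genes tested is 2.93.

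At 2.5 weeks Mat1a read 1902, 1939 and 1977 CPM in homeostasis and 1218, 102 and 853 CPM in fibrosis-like assembloids, and Mat2a read 106, 100.3 and 101 CPM against 129, 158 and 129.6 CPM. Neither gene overlapped between the groups. Ahcy (213 to 228 CPM against 58.6 to 166 CPM) and Cbs (54.0 to 64.7 CPM against 14.9 to 44.8 CPM) did not overlap either. None of these genes passed in the fit over all genes, where 0% did. The share of all genes without overlap was not counted. Bhmt was 528, 538 and 63.1 CPM against 276, 54.3 and 213 CPM and Gnmt 41.0, 23.3 and 36.6 CPM against 29.4, 9.60 and 29.5 CPM, both with overlap. Homeostasis assembloids at 2.5 weeks thus held more Bhmt in 2 of 3 libraries than any HepOrg library, the highest of which was 116 CPM, but still less than the lowest fresh library at 991 CPM. Their times differ from those of the HepOrgs, so no test was made.

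At 1 week assembloids and MM HepOrgs are both labelled as 7 days in MM. Assembloids were also brought together in MM before that count began, so their whole time in MM may have been longer. Homeostasis assembloids against MM HepOrgs gave 0 members and 0% of 14386 genes by edgeR, with 1 member and 2250 genes at an unadjusted p under 0.05, and 0 members and 861 of 15013 genes by DESeq2. Without homeostasis replicate 2 it gave 0 members against 0.0270% of genes, with 3 members and 1939 of 14841 genes at an unadjusted p under 0.05. Fibrosis-like assembloids against the same MM HepOrgs gave 0 members against 0.751% of genes, with 4 members and 3002 genes at an unadjusted p under 0.05, and 2 members and 2050 of 14665 genes by DESeq2. Without the 2 low-marker libraries, which are in the fit only for its estimate of spread in the second comparison, 6 members passed there, all lower in fibrosis-like assembloids, against 37.0% of genes. Levels of Mat1a were 192, 128 and 127 CPM in fibrosis-like assembloids and 1898, 1105 and 827 CPM in MM HepOrgs, without overlap. Ahcy read 82.2, 79.9 and 48.5 CPM against 178, 198 and 155 CPM, also without overlap. Pemt, Cbs and Cth were likewise lower without overlap, and the share of all genes without overlap was not counted.

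Over all 9 conditions the order of mean Mat1a levels ran from fresh hepatocytes at 3109 CPM through MM HepOrgs at 2 weeks (2225), homeostasis assembloids at 2.5 weeks (1939) and 1 week (1375), MM HepOrgs at 1 week (1277), fibrosis-like assembloids at 2.5 weeks (724) and HM-Wnt HepOrgs at 1 week (374) and 2 weeks (273) down to fibrosis-like assembloids at 1 week (149 CPM). Each group overlapped the next in that order. Without homeostasis replicate 2 the mean of homeostasis assembloids at 1 week was 2020.4 CPM, which puts it before those of 2.5 weeks. Mat2a was highest in HM-Wnt at 2 weeks (252 ± 6.61 CPM, SD, n = 3) and lowest in homeostasis assembloids at 2.5 weeks (102 ± 2.98 CPM), and only the last step, from fresh hepatocytes at 116 ± 8.09 CPM, was without overlap between neighbours. Mean Nnmt ran from 93.4 CPM in fresh cells, where 1 library set it, to 30.6 CPM in homeostasis assembloids at 2.5 weeks, and all neighbours overlapped.

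Levels per kilobase of exon allow genes to be set side by side only as far as the counts come from exons. The mean order in fresh cells was Gnmt (2095 CPM per kilobase), Mat1a (821), Bhmt (794), Ahcy (259), Inmt (178), Pemt (150.2), Cbs (81.3), Cth (60.9), Nnmt (27.9) and Mat2a (24.9). In HM-Wnt at 2 weeks Mat1a (72.2), Ahcy (72.0) and Mat2a (53.9) led. By these means Mat2a had moved from the last place to the third, while Gnmt had gone from the first to the eighth. The last place of Mat2a rested on the high Nnmt level of fresh replicate 2. Over the fresh libraries Nnmt ran from 2.10 to 76.7 CPM per kilobase, and Mat2a from 23.0 to 26.4. In MM at 2 weeks Mat1a led at 588 CPM per kilobase, well ahead of Ahcy (73.3), Pemt (39.5) and Mat2a (30.2).

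Genes whose mean log2 level over the 9 conditions was most like that of Mat2a were Smad5 (Pearson r = 0.964), Igf2r (0.959) and Ppme1 (0.958) of 7494 genes compared, and those most like Nnmt were Trappc3 (0.862), Fuca1 (0.845) and Ddost (0.822). Without both low-marker assembloid libraries the 3 were Smad5 (0.971), Igfbp3 (0.957) and Appl2 (0.956) for Mat2a and Slc30a6 (0.915), Trappc3 (0.862) and Kng1 (0.859) for Nnmt, so 1 gene of each list was in both. These correlations run over 9 condition means that share libraries and normalisation, and are given as descriptions.

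Of 67 other genes of the pathway, all tested, 46 passed in HM-Wnt at 1 week (7 higher, 39 lower), 49 at 2 weeks (40 lower, 9 higher), 41 in 1-week MM (8 higher, 33 lower) and 40 in 2-week MM (31 lower, 9 higher) against fresh hepatocytes. Over all genes tested 49.7%, 51.8%, 42.8% and 39.7% passed in these comparisons. As lower, 24.8% and 25.7% of all genes passed in HM-Wnt, and 21.3% and 20.0% in MM. The 8 genes listed for betaine, sarcosine and glycine metabolism were all lower in HM-Wnt at both times and in MM at 2 weeks, and 7 of 8 in MM at 1 week. Among them Dmgdh and Sardh, the mitochondrial dehydrogenases that act on dimethylglycine (the product of Bhmt) and sarcosine (the product of Gnmt), had log2 fold changes of -9.89 and -5.05 in HM-Wnt at 1 week and -5.18 and -4.01 in MM at 2 weeks. Bhmt2, the paralog of Bhmt that uses S-methylmethionine, went with it, at -7.29 and -8.48 in HM-Wnt and -4.68 and -3.61 in MM.

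The counts varied between lists, and differences between lists were not tested. Of 11 genes of the methionine cycle and salvage, 3 passed in HM-Wnt at 1 week (1 higher, 2 lower), or 27.3% against 49.7% of all genes. In each of the other 3 comparisons 5 passed, or 45.5%, against 51.8%, 42.8% and 39.7% of all genes. The medians lay between 0.0123 and 0.25. Of 15 folate genes, 12 and 14 passed in HM-Wnt (4 and 5 higher, 8 and 9 lower). In MM 11 passed at each time (4 higher, 7 lower), against the same shares of all genes. The higher ones included 3 that encode mitochondrial enzymes. Aldh1l2 had log2 fold changes of 4.58 and 5.35 in HM-Wnt and 5.28 and 4.96 in MM, at the earlier and the later time. Mthfd2 had 3.21, 3.59, 3.03 and 3.42, and Mthfd1l 2.58, 2.91, 2.70 and 2.65. In all 4 comparisons these 3 were the highest among those of the 67 that passed with an average log2 CPM of 3 or more. The regulatory subunit Mat2b passed only in MM, at 0.41 (adjusted p = 0.0283 from edgeR) and 0.46 (adjusted p = 0.0177 from edgeR), while Ahcyl1, Ahcyl2 and Mtr, the methionine synthase that uses folate, passed in none of the 4.

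Between media 7 of the 67 passed at 1 week, each of them higher in MM, against 2.98% of all genes. At 2 weeks 17 passed against 11.5%, of which 16 were higher and 1 was lower. Bhmt2 was higher in MM by 2.59 and 4.89 on the log2 scale, Csad, which makes hypotaurine from cysteine sulfinate, by 3.01 and 2.33, and the folate enzymes Aldh1l1 by 1.67 at 1 week and Ftcd by 2.36 at 2 weeks. The 1 lower gene was Amd1, which decarboxylates S-adenosylmethionine for polyamine synthesis, at -0.95.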

How the data were processed

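Bulk RNA of 27 libraries was analysed, and another 10 libraries in the same table were not used. Per the paper's methods and the submitters' processing notes, the authors aligned reads to GRCm39 with STAR and counted them per gene with featureCounts. The libraries were made with SMARTseq2, which does not mark strand. The deposited table holds whole read counts per gene, which were used as deposited, and TPM values that the authors made with gene lengths that include introns. For 8 of the 10 members that length was close to the full span of the gene, while for Pemt it was 85.3% and for Nnmt 19.0% of it. TPM entered only an alternative test, and levels between genes were set side by side as CPM per exonic kilobase of GENCODE GRCm39. The paper names exons, transcripts and coding sequence as the features counted. Whether the deposited counts include reads in introns was not tested. 2 reporter rows were left out of totals and tests.

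Libraries were grouped by title. Counts were filtered with filterByExpr (minimum count 10, minimum total 15), TMM-normalised and tested with edgeR 4.0.16 in R 4.3.3 (glmQLFit, glmQLFTest, adjusted p under 0.05). There were 4 fits: fresh cells with HepOrgs, HepOrgs alone, assembloids alone, and assembloids with MM HepOrgs. Alternatives were DESeq2 1.42.0, RLE size factors, limma 3.58.1 on log2(TPM + 1) or log2(TPM + 0.1) for genes at 1 TPM or more in 3 libraries, no filter, at least 10 counts in every library, all libraries in 1 fit, a replicate block and each library left out in turn. Leaving out both low-marker assembloid libraries, without or with scaling to hepatocyte markers, and leaving single libraries out of the ratio test were added after the data were seen. The edgeR, DESeq2 and limma fits were tested on simulated data. Permutation tests, counting intervals, correlations, marker sums and sequence matches were not part of that test.

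In the HepOrg fit, libraries with the same replicate number deviated together in 18 of 18 pairs (correlation 0.127 to 0.503 over genes), so the numbers pair those libraries. With fresh cells in the fit 19 of 30 such pairs had a correlation above 0.1, and in the 2 assembloid fits 6 of 18 and 11 of 45, so no pairing was taken there. All 10 members, the lists of other pathway genes and markers, and the rule for naming genes (all members, the 3 highest and 3 lowest called pathway genes whose log2 CPM averaged 3 or more, partners of members, and the 3 genes most like Mat1a, Mat2a and Nnmt, of which those of Mat1a are not reported here) were chosen with earlier results of these data known.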

Additional observations from a re-analysis of the deposited data

How the results depend on the processing

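Over the alternatives, the fold changes of single members kept their direction and their side of the threshold in 792 instances, passed it newly in 25, lost it in 53 and changed direction in 32. The 9, 9, 9 and 7 members called against fresh hepatocytes became 7, 7, 6 and 5 with all 27 libraries in 1 fit, 7, 7, 7 and 5 with at least 10 counts in every library, which removes low genes by construction, and 8, 8, 8 and 7 with limma.

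Between media at 1 week, where 2 members were called, 0 were called with all 27 libraries in 1 fit, 0 with at least 10 counts in every library, 1 with limma on log2(TPM + 1), 5 with the replicate block and 0 to 3 with a library left out. Over all genes, where 387 of 12989 were called, the first 4 of these gave 0 of 14655, 447 of 11097, 333 of 9439 and 1232 of 12989. At 2 weeks the 5 members became 0 with all 27 libraries and 3 with at least 10 counts (7 of 14655 and 1348 of 11097 genes), and 2 to 4 with a library left out. For fibrosis-like against homeostasis assembloids at 1 week, 1 member was called by DESeq2, 2 with all 27 libraries, 7 without both low-marker libraries, 1 with these scaled to hepatocyte markers, and 0 to 5 with a library left out. Over all genes, where 0 of 14253 were called, the first 4 gave 796 of 14944, 910 of 14655, 2308 of 14517 and 10338 of 14517. For fibrosis-like assembloids against MM HepOrgs these settings gave 2, 2, 6 and 2, and at least 10 counts gave 2, while the calls over all genes rose from 108 of 14386 to 2050 of 14665, 1068 of 14655, 5435 and 10318 of 14686, and 900 of 6184. In the fits where the replicate numbers did not pair the libraries, the block changed no member's call between fibrosis-like and homeostasis assembloids. The cause of these changes was not tested. The ratio of Mat1a to Mat2a differed between media by 2.84 to 3.15 on the log2 scale with 1 replicate number left out of all 4 groups (exact permutation p = 0.0556, the smallest that 36 permutations allow), and by 2.79 to 3.13 with single libraries left out (exact permutation p = 0.005 to 0.01). Between assembloids it differed by -2.95 to -2.44 (exact permutation p = 0.0556 to 0.278) and by -3.56 to -2.04 (exact permutation p = 0.005 to 0.1).

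Directions that turned were those of small or widely spread differences, and the cause was not tested. Nnmt against fresh cells was 1.15 and 1.32 by limma (pseudocounts 1 and 0.1) in HM-Wnt at 1 week, 0.89 and 1.05 at 2 weeks, 0.53 and 0.67 in MM at 1 week and 0.45 and 0.59 at 2 weeks, and ran from -1.33 to 2.22, -1.87 to 1.68, -1.97 to 1.56 and -1.99 to 1.56 with a library left out. Against fresh cells in MM at 2 weeks, Mat1a was 0.0217 and 0.0218 by limma, and Mat2a ran from -0.00801 to 0.44 with a library left out. Between media at 1 week, Pemt ran from -0.14 to 0.65 and Cbs from -0.41 to 0.0420. At 2 weeks, Ahcy was -0.0263 with all 27 libraries and -0.27 and -0.28 by limma and ran from -0.15 to 0.26, Cbs was -0.12 and -0.12 by limma, and Nnmt ran from -0.39 to 0.10. In fibrosis-like assembloids at 1 week Gnmt was 0.0757 and 1.12 and Cth 0.20 and 1.13 by limma, and Ahcy was 0.80 and Cth 0.64 when scaled to hepatocyte markers, a scale that by its construction moved the median of all genes to 2.93. Depth limited mainly Inmt in HM-Wnt, with 1 and 6 counts over 3 libraries each. The number of libraries limited the permutation tests.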
